A study of Arabidopsis thaliana with 20 samples.

Results

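Plastid ribosomal proteins L5 (AT4G01310, called PRPL5 here) and L17 (AT3G54210, PRPL17) were followed in Arabidopsis thaliana deprived of CO2. The members were the probes that the platform annotation ties to exactly 1 gene, that gene being AT4G01310 or AT3G54210. This gave 2 probes, 4297 for PRPL5 and 1739 for PRPL17, of 3439 with deposited values, and thus 2 of the 691 genes with a probe of their own. All plants were wild type, ecotype Columbia 0, with no further allele or agent in any group. The low CO2 group held 10 samples of total RNA from plants that spent their final 96 h at 0.003% CO2 by volume, marked 4d in the titles. The normal CO2 group held 10 samples, marked 0d, whose plants had grown at normal CO2. CO2 supply and time changed together between the groups, so their effects cannot be told apart. The labels give neither the tissue, the age of the plants nor whether plants were pooled.

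Chloroplasts translate their own genome on ribosomes of the bacterial type, which make, among others, the large subunit of Rubisco and core subunits of both photosystems. Most proteins of these ribosomes are encoded in the nucleus, made in the cytosol and imported, and a smaller set is encoded in the plastid itself. In the bacterial ribosome, L5 binds 5S ribosomal RNA in the central protuberance of the large subunit, and L17 lies on the large subunit close to the opening of the tunnel through which the new protein chain leaves.

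The measurement was an array intensity, 1 value per probe and sample, on the authors' linear scale. Column totals were 3604 to 3797 in low CO2 and 3495 to 3749 in normal CO2. Columns numbered 1 and 2, 3 and 4, up to 9 and 10 shared their deviations from the group mean: the closest column of the same group was this neighbour for 10 of 10 columns in low CO2 and 10 of 10 in normal CO2. The correlation between neighbours, across probes, was 0.17 to 0.49 in low CO2 and 0.31 to 0.82 in normal CO2. No other pairing of columns within a group exceeded -0.05 in low CO2 or 0.13 in normal CO2. Taking deviations from the group mean lowers correlations within a group by construction, so these low values are partly fixed by it. Since each column was closest to its neighbour, neighbouring columns were averaged, which gave 5 averaged pairs per group, and n counts these pairs below. Since no label ties the pairs to separate plants, the p-values cover the spread between samples alone, and that spread may be technical. The one green tissue marker with a probe of its own, the antenna gene LHB1B2 (AT2G34420), was measured in all 20 columns, at intensities of 0.777 to 1.41 in low CO2 and 4.55 to 9.79 in normal CO2. No seed or root marker of the list had a probe of its own.

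PRPL5 and PRPL17 both had lower mean signals after low CO2 than at normal CO2, and neither difference passed the test. By log2 means, with each column centred on its median, the PRPL5 signal was 1.28-fold lower and the PRPL17 signal 1.22-fold lower in low CO2. The groups overlapped for both genes. In RNA from whole samples, fewer cells of a type and less RNA per cell cannot be told apart.

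PRPL5 gave a signal above 0 in all 20 columns. Its deposited intensity was 0.294 at the lowest, 0.427 at the median and 0.561 at the highest in the 10 low CO2 columns, and 0.399, 0.536 and 0.657 in the 10 normal CO2 columns. Of the low CO2 columns, 4 of 10 lay below every normal CO2 column, and 4 of 10 normal CO2 columns lay above every low CO2 column. Averaged by pair, the intensity of PRPL5 was 0.435 ± 0.082 in low CO2 and 0.547 ± 0.078 in normal CO2 (SD, n = 5 each).

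PRPL17 was also above 0 in all 20 columns. Its intensity ran from 0.415 over a median of 0.644 to 0.734 in low CO2, and from 0.576 over 0.770 to 0.912 in normal CO2. Again 4 of 10 low CO2 columns lay below every normal CO2 column, while 6 of 10 normal CO2 columns lay above every low CO2 column. Averaged by pair, its intensity was 0.605 ± 0.121 in low CO2 and 0.727 ± 0.129 in normal CO2 (SD, n = 5 each). The 2 probes cannot be set against each other as amounts of transcript, since the signal per molecule differs between probes.

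**Figure D1:**
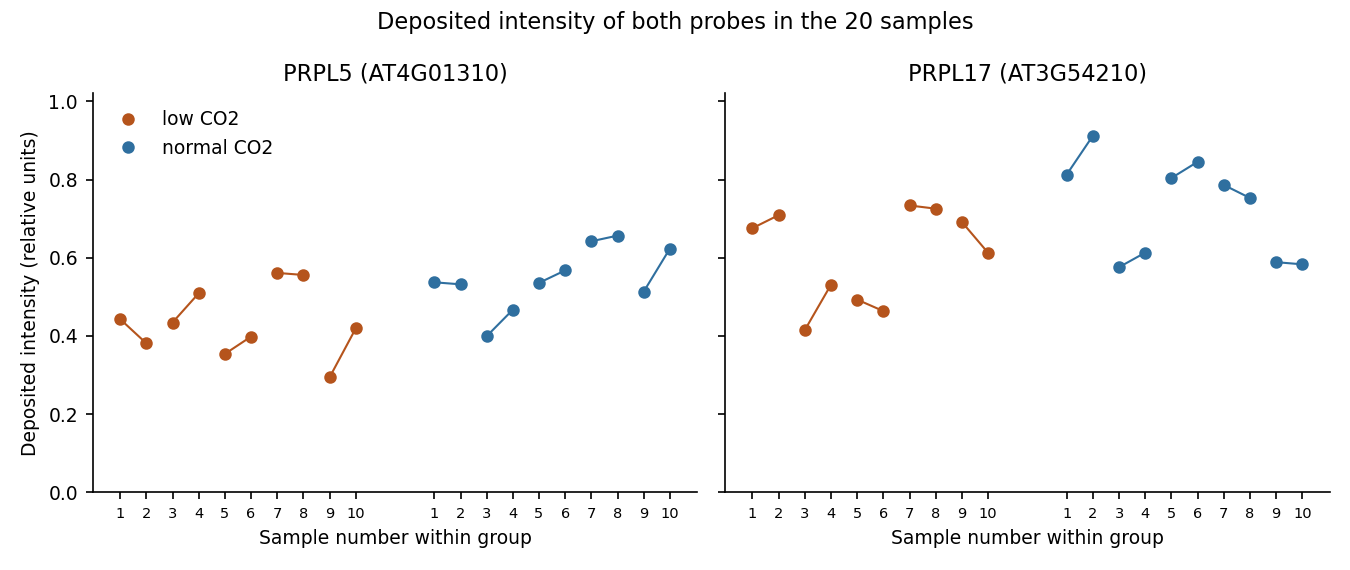
Deposited intensity (relative units, linear axis from 0) of the PRPL5 and PRPL17 probes in each of the 20 samples, by sample number within the low CO2 and the normal CO2 group. Lines join neighbouring numbers; the groups overlap for both genes, with 4 of 10 low CO2 samples below every normal CO2 sample.

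PRPL5 lay around the middle of the array's brightness range and PRPL17 above it. In low CO2, between 40.1% and 58.1% of all probes in a column were dimmer than PRPL5, with a median of 50.9%, and in normal CO2 between 47.7% and 72.0%, with a median of 56.9%. For PRPL17, 49.1% to 66.0% of probes were dimmer in low CO2 (median 62.5%) and 59.8% to 72.2% in normal CO2 (median 70.0%). These ranks need no scaling between columns, and on this measure, too, the groups of each gene overlapped. By rank, 2 of 10 low CO2 columns for PRPL5 and 3 of 10 for PRPL17 lay below every normal CO2 column. Of the normal CO2 columns, 4 of 10 for PRPL5 and 7 of 10 for PRPL17 ranked above every low CO2 column.

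For the test, intensities were put on the log2 scale and each column was centred on its median, so a level below is log2 signal relative to the column median. The centred level of PRPL5 was -0.23, -0.02, -0.07, 0.22 and -0.35 in the averaged pairs 1-2, 3-4, 5-6, 7-8 and 9-10 of low CO2, and -0.13, -0.11, 0.20, 0.64 and 0.77 in the same order in normal CO2. The normal CO2 pairs 7-8 and 9-10 stood above every low CO2 pair, whereas the normal CO2 pairs 1-2, 3-4 and 5-6 lay inside the low CO2 range. The mean level was -0.09 ± 0.22 in low CO2 and 0.27 ± 0.42 in normal CO2 (SD, n = 5 each). The wider spread in normal CO2 appeared with centring: on the log2 scale without it, the SD of PRPL5 was 0.27 in low CO2 and 0.21 in normal CO2. Column medians were between -1.35 and -1.05 in low CO2 and between -1.59 and -0.77 in normal CO2, with normal CO2 columns 9 and 10 at the lower end.

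The limma fit over all 3277 tested probes gave PRPL5 a log2 change, low CO2 minus normal CO2, of -0.36 ± 0.20 (SE), with a 95% interval of -0.80 to 0.08 and adjusted p = 0.387. As a ratio of signal, low CO2 over normal CO2, this is 0.779, with an interval of 0.575 to 1.05. All 5 low CO2 pairs lay below the normal CO2 mean, but only 2 of 5 lay below every normal CO2 pair. An exact two-sided permutation test of the same 10 averaged pairs gave p = 0.151, where the smallest p that 5 against 5 allows is 0.0079. The interval leaves room for no change and for a signal in low CO2 at 0.575 of that in normal CO2.

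The centred level of PRPL17 was 0.53, -0.02, 0.28, 0.61 and 0.54 in the low CO2 pairs 1-2, 3-4, 5-6, 7-8 and 9-10, and 0.55, 0.35, 0.78, 0.89 and 0.82 in the same order in normal CO2. Low CO2 pairs 3-4 and 5-6 lay below every normal CO2 pair, and normal CO2 pairs 5-6, 7-8 and 9-10 lay above every low CO2 pair. The mean level was 0.39 ± 0.26 in low CO2 and 0.68 ± 0.22 in normal CO2 (SD, n = 5 each). In limma the log2 change was -0.29 ± 0.17 (SE), with a 95% interval of -0.65 to 0.07 and adjusted p = 0.402, a signal ratio of 0.817 (0.636 to 1.05). The exact two-sided permutation test gave p = 0.0794. Without low CO2 columns 3 and 4, the change of PRPL17 was -0.19, with limma's adjusted p = 0.614. For PRPL5, the change without normal CO2 columns 9 and 10 was -0.24, with limma's adjusted p = 0.600.

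**Figure D2:**
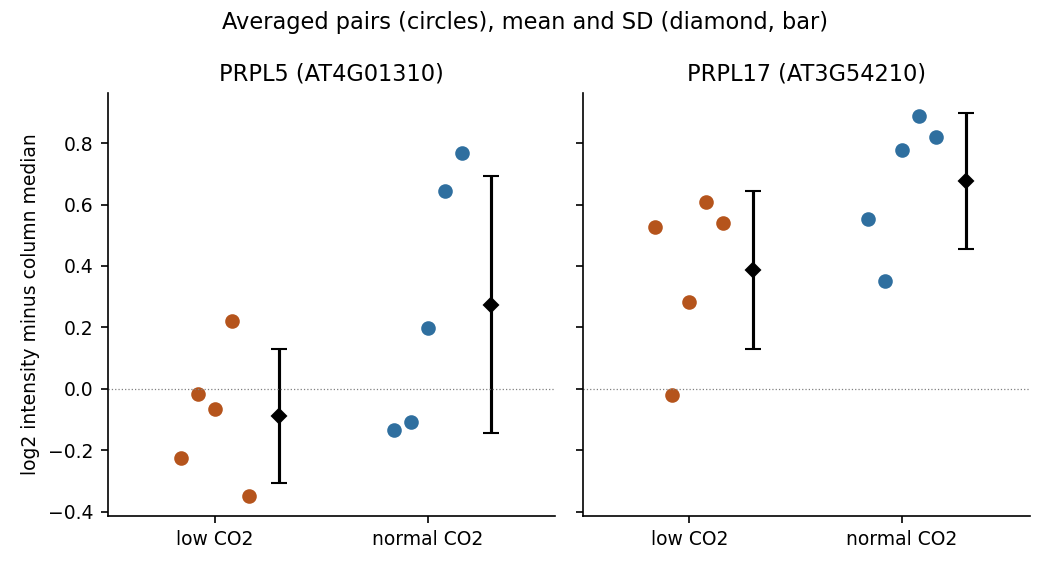
Centred level (log2 intensity minus column median) of PRPL5 and PRPL17 in the averaged pairs, with low CO2 left of normal CO2. Circles are the 5 averaged pairs of a group and diamonds with bars the mean and SD; all 5 low CO2 circles lie below the normal CO2 mean in both genes, and the circles of the groups overlap.

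The threshold, an adjusted p under 0.05 in limma, was passed by 69 of the 3277 tested probes, or 2.11%, and by 1.74% as lower in low CO2. With 0 of 2 members past it, and unadjusted p-values in limma of 0.0984 for PRPL5 and 0.106 for PRPL17, 832 probes had a smaller p than PRPL5 and 864 a smaller p than PRPL17. The groups did not overlap in 4.94% of all tested probes, and they overlapped in both members. The size of the change was larger than that of 65.7% of tested probes for PRPL5 and of 56.3% for PRPL17. In direction, 24.1% of tested probes had a lower change than PRPL17 and fewer had a lower one than PRPL5, and the median over all probes was 0.01.

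The spread of the members' values depended on the centring. With it, the SD between averaged pairs within groups was 0.33 for PRPL5 and 0.24 for PRPL17 on the log2 scale, against a median of 0.37 over all tested probes. For PRPL5 42.7% of probes had a smaller SD, and for PRPL17 18.2%. Without centring the order turned, with an SD of 0.24 for PRPL5 and 0.28 for PRPL17 against a median of 0.42 over all tested probes, so neither gene is the less variable one on both scales. The gap between the 2 columns of a pair had a median of 0.18 for PRPL5, wider than in 62.5% of probes, and of 0.09 for PRPL17, wider than in 22.7%. For PRPL5 this gap reached 0.54 in low CO2, in columns 9 and 10 (levels of -0.62 and -0.08), and 0.29 in normal CO2. For PRPL17 it reached 0.36 in low CO2, in columns 3 and 4 (levels of -0.20 and 0.16), and 0.17 in normal CO2.

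Whether the 2 genes changed by different amounts was asked with the log2 difference of PRPL5 minus PRPL17 within each averaged pair, from which the column centring cancels. This difference was -0.75, 0.00, -0.35, -0.39 and -0.89 in the low CO2 pairs in order of number, and -0.69, -0.46, -0.58, -0.24 and -0.05 in the normal CO2 pairs. It averaged -0.47 ± 0.35 in low CO2 and -0.40 ± 0.26 in normal CO2 (SD, n = 5 each). The change of PRPL5 was thus 0.07 further below 0 than that of PRPL17 on the log2 scale (-0.07 ± 0.20, SE), with an exact two-sided permutation p = 0.722 and a 95% interval, from inverting that test, of -0.51 to 0.40. No difference between the 2 changes was detectable, and the interval allows one of up to 0.51 in that direction and 0.40 in the other. This was one of 3 exact permutation tests between the groups, with those of the members' own changes, and adjusted over the 3 by Benjamini-Hochberg the p-values were 0.226 for PRPL5, 0.226 for PRPL17 and 0.722 for their difference.

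Across the 10 averaged pairs, the centred levels of PRPL5 and PRPL17 had a Pearson correlation of 0.61 (permutation p = 0.0392) and a Spearman correlation of 0.59 (permutation p = 0.0797), the one relation computed between the members. On the centred scale, low CO2 pair 7-8 was the highest low CO2 pair in both genes, and normal CO2 pairs 5-6, 7-8 and 9-10 were the 3 highest normal CO2 pairs in both. The deposited intensity of PRPL17 did not follow that order in normal CO2, where pair 9-10 was the dimmest at 0.586 and pair 1-2 the brightest at 0.862. The relation did not pass without normal CO2 pairs 7-8 and 9-10, the 2 averaged pairs farthest from the median of PRPL5. Pearson's r was then 0.20 (exact permutation p = 0.656). Leaving out extremes of PRPL5 narrows its range, which by itself can lower r. Whether the relation rested on these 2 pairs therefore cannot be read from this value. The relation did not pass either with group means removed (r = 0.46, permutation p = 0.181) or without centring (r = 0.51, permutation p = 0.132).

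**Figure D3:**
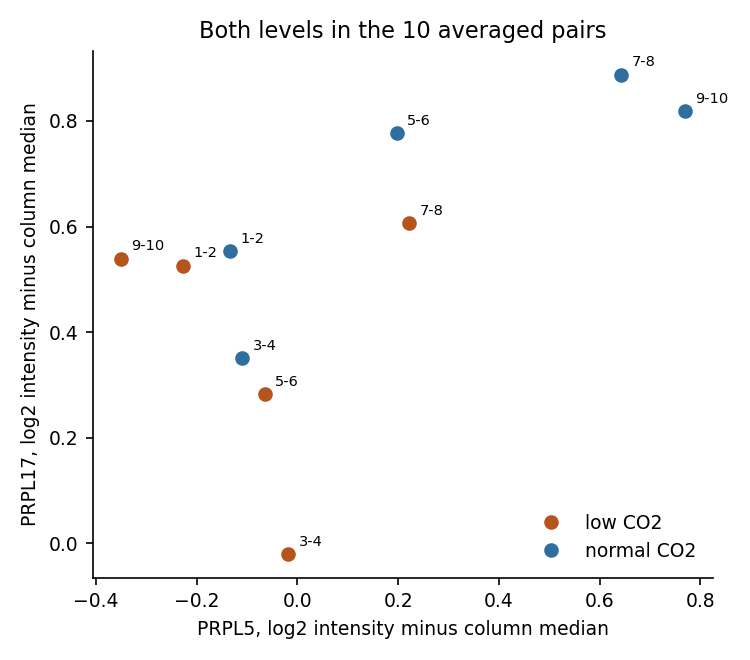
Centred level of PRPL17 against that of PRPL5 (both log2 intensity minus column median) in the 10 averaged pairs, labelled by their sample numbers and coloured by group. Normal CO2 pairs 7-8 and 9-10 sit at the upper right; over all 10 points Pearson's r is 0.61, and without these 2 points it is 0.20.

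The remaining plastid ribosomal proteins give the members their context, although few had a probe of their own. The list held 41 nuclear genes, PRPL5 and PRPL17 included. Of these, 6 had a probe tied to that gene alone, 5 of them could be tested, and 0 of the 5 passed in either direction in limma, with 0 at an unadjusted p under 0.05, which 17.4% of all tested probes had. 3 of the 5 log2 changes lay below 0 and 2 above, where 48.7% of all tested probes lay below 0, with a median of -0.26 beside 0.01 over all tested probes. Both members are among the 5, at -0.36 (PRPL5) and -0.29 (PRPL17), and pull this median down. Apart from them, the changes lay on both sides of 0, at 0.33 (AT1G29070), 0.05 (AT3G13120) and -0.26 (AT1G64510). The names of the other 4 genes with a probe, L34, L29, S6 and S10, come from general knowledge of the chloroplast ribosome and not from the reference table used here.

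Among large subunit genes, AT1G29070 (L34) had a mean signal in low CO2 above that in normal CO2, a difference that did not pass. Its centred level was 0.97 ± 0.35 in low CO2 and 0.64 ± 0.46 in normal CO2 (SD, n = 5 each), and its log2 change was 0.33 ± 0.23 (SE, limma's adjusted p = 0.489), and 0.14 without normal CO2 columns 7 and 8. Across the 10 averaged pairs its level had Pearson's r of -0.85 to PRPL17 and -0.73 to PRPL5, given as a description. Without centring these values were -0.23 and -0.56, so the value for PRPL17 depended on the centring that all probes of a column share. The L29 gene, AT5G65220, was listed at 0 in 19 of 20 columns and could not be tested.

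The small subunit was represented by S6 and S10. AT1G64510 (S6) had a centred level of -1.16 ± 0.97 in low CO2 and -0.89 ± 0.27 in normal CO2 (SD, n = 5 each). Its log2 change was -0.26, with an SE of 0.37 and limma's adjusted p = 0.749. In low CO2 its pairs lay between -2.58 (pair 7-8) and 0.03 (pair 9-10), and within pair 7-8 column 8 stood at -4.08 and column 7 at -1.08. Without pair 7-8 the change was 0.09, and without pair 9-10 it was -0.56. AT3G13120 (S10) stood at 1.62 ± 0.52 in low CO2 and 1.58 ± 0.28 in normal CO2, and its log2 change was 0.05, with an SE of 0.23 and limma's adjusted p = 0.933. Its change fell on the other side of 0 with quantile normalization (-0.01) and cyclic loess (-0.04), and leaving out 1 averaged pair moved it between -0.08 (low CO2 pair 9-10) and 0.26 (low CO2 pair 5-6).

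**Figure D4:**
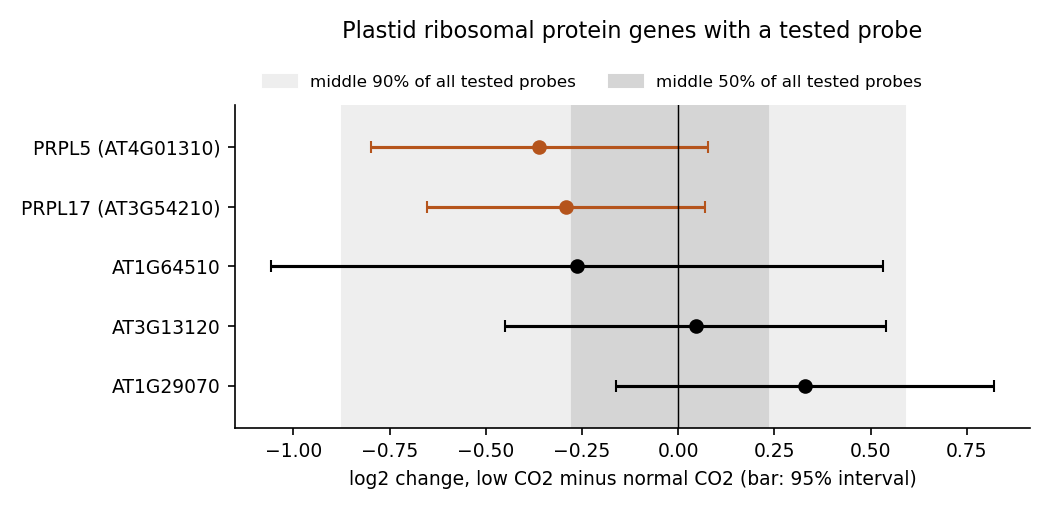
Log2 change, low CO2 minus normal CO2, of the 5 plastid ribosomal protein genes with a tested probe; points are limma estimates, bars 95% intervals, and grey bands the middle part of all 3277 tested probes (light from the 5th to the 95th percentile, dark from the 25th to the 75th). All 5 intervals include 0, with PRPL5 (-0.36) and PRPL17 (-0.29) left of the dark band and AT1G29070 (0.33) right of it.

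The genes with the pattern most like each member were sought among single-gene probes with a value in all 10 averaged pairs, by Pearson's r of the centred level, 627 candidates for each member. For PRPL5 the 3 nearest were AT4G12740 (r = 0.94), PSBW (AT2G30570, a small membrane subunit of photosystem II, r = 0.92) and AT5G56850 (r = 0.91). For PRPL17 they were AT4G31930 (r = 0.88), AT1G76220 (r = 0.83) and AT1G62780 (r = 0.81). The median r over the candidates was -0.08 for PRPL5 and -0.03 for PRPL17, and 16 candidates exceeded 0.8 for PRPL5 and 5 for PRPL17. PRPL17 ranked 65th among the candidates for PRPL5, and PRPL5 ranked 43rd among those for PRPL17. With 10 averaged pairs and 627 candidates, high values of r can arise without any relation, and they are given as a description. Without centring, r of the 3 nearest genes was 0.92, 0.78 and 0.90 for PRPL5 and 0.81, 0.88 and 0.71 for PRPL17, in the order above.

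None of these 6 genes passed the test between the groups, and all 6 had a log2 change below 0. The changes were -0.50 ± 0.23 (SE) for AT4G12740, -0.55 ± 0.38 for PSBW and -0.46 ± 0.29 for AT5G56850. They were -0.54 ± 0.24 for AT4G31930, -0.23 ± 0.20 for AT1G76220 and -1.07 ± 0.53 for AT1G62780. The lowest adjusted p in limma among the 6 was 0.269, for AT4G31930. Since the likeness was measured over both groups, a shared difference between the groups is part of it, and with group means removed r was 0.92, 0.90 and 0.88 for the 3 genes of PRPL5 and 0.81, 0.79 and 0.72 for those of PRPL17.

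Both members kept a change below 0 in all 22 alternative fits, and neither passed in any of them. The log2 change of PRPL5 was farthest from 0, at -0.46, when normal CO2 columns 1 and 2 were left out, and nearest, at -0.24, when columns 9 and 10 of that group were. That of PRPL17 was farthest at -0.37 and nearest at -0.19, with columns 3 and 4 left out of normal CO2 for the first and of low CO2 for the second. The fit that entered 20 separate columns came nearest to the threshold, with limma's adjusted p = 0.0926 for PRPL5 and 0.076 for PRPL17. That fit treats neighbouring columns as independent, although they deviated together.

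**Figure D5:**
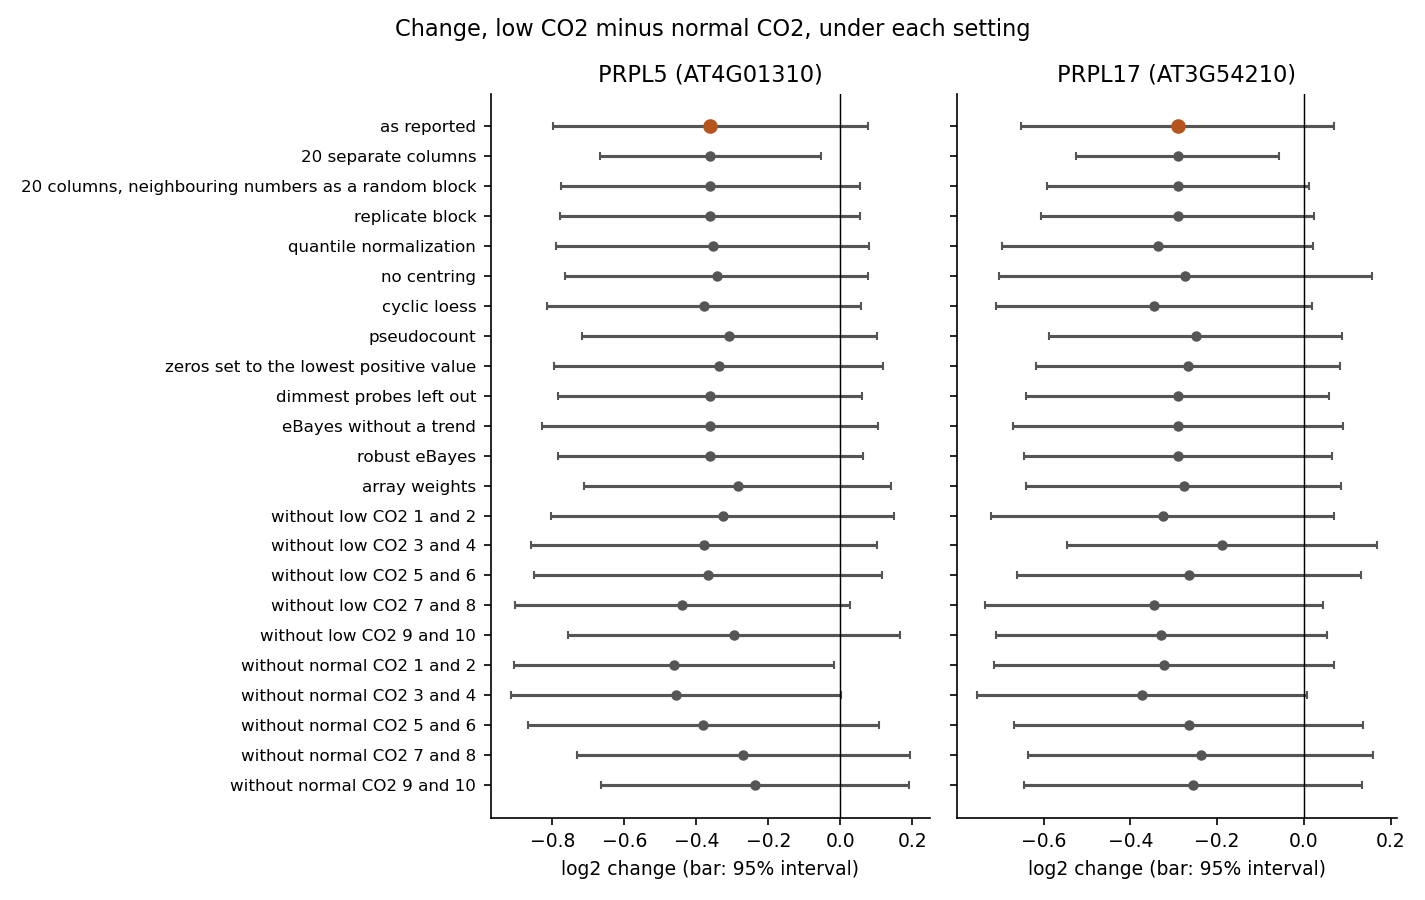
Log2 change, low CO2 minus normal CO2, of PRPL5 and PRPL17 as reported (top row) and in each of the 22 alternative fits; points are limma estimates and bars 95% intervals. Every point lies below 0, between -0.46 and -0.24 for PRPL5 and between -0.37 and -0.19 for PRPL17, and the intervals include 0 except with 20 separate columns (both genes) and without normal CO2 columns 1 and 2 (PRPL5).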

How the data were processed

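The authors deposited 1 linear intensity for each probe in each sample. Not given in the sources used here are its scaling, its background correction and the array type. The number of arrays limits the precision. No background measurement was used. Genes were taken from the platform annotation, where 692 probes have 1 gene, 870 have several and 1877 are not listed; 690 of the 692 matched the reference table (TAIR10.1). The array's build is not given, so no coordinates are printed.

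Values of 0 were treated as missing, the rest were put on the log2 scale without a pseudocount, columns were centred on their medians and neighbouring numbers were averaged. A probe measured in 3 or more averaged pairs per group was tested, with limma 3.58.1 in R 4.3.3 (lmFit, eBayes with a variance trend, Benjamini-Hochberg over all 3277 probes, threshold 0.05). Exact permutation tests used scipy 1.17.1, and correlations over 10 values 100000 resamples. The code was tested on simulated data.

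The members, lists, tests and the averaging were chosen with earlier results of these data known. Named genes were the members, the other tested genes of the list of plastid ribosomal proteins, and the 3 single-gene probes most like each member. Of 8 plastid translation factors, 0 had a probe of their own. A planned comparison with other ribosomal proteins was not made, since the reference table used holds no gene descriptions.

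Whether numbers pair the samples across groups was checked on deviations of averaged pairs from their group means: the correlation of equal numbers was 0.40, 0.34 and 0.29 in 3 of the 5, and 0.05 and -0.02 in the other two. Numbers were to count as pairing the samples only if all 5 exceeded 0.1, so the planned fit without a block was kept, and the blocked values are given with the alternatives. The alternatives changed 1 step each: entering 20 separate columns, or the same with neighbours as a random block; a replicate block; quantile, cyclic loess or no normalization; adding 0.0403 (the 10th percentile of all values) to every value, or raising zeros to the lowest positive value; dropping the dimmest 25% of probes; array weights; eBayes in robust form or with no variance trend; and dropping each averaged pair.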

Additional observations from a re-analysis of the deposited data

Results flagged for a closer look

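Among the 10 groups of 5 averaged pairs of the 5 tested plastid ribosomal protein genes, 1 held a pair far from the others, where chance flags about 1 in 20 groups. The centred log2 level of AT3G13120 (S10) was 1.08 in normal CO2 pair 5-6, with the nearest other pair at 1.66 and a group mean of 1.58 ± 0.28 (SD, n = 5). In the low CO2 pair of the same number it was 0.76, the lowest low CO2 pair as well. No pair of PRPL5 or PRPL17 was marked in this way.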

How the results depend on the processing

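The changes of PRPL5 and PRPL17 kept their direction and stayed short of the threshold in all 22 alternatives, with ranges of -0.46 to -0.24 and -0.37 to -0.19, the same as the ranges when 1 averaged pair was left out. With the replicate block, 89 probes passed, and limma's adjusted p was 0.315 for PRPL5 and 0.295 for PRPL17. Averaged pairs of equal number did not clearly bear out this block (r of -0.02 to 0.40, and 3 of 5 best with their own number). On the centred scale, low CO2 lay below normal CO2 in 4 of 5 equal numbers for PRPL5 and in 5 of 5 for PRPL17. By deposited intensity the count was 4 of 5 for both genes. There, PRPL17 in pair 9-10 was at 0.652 in low CO2 and 0.586 in normal CO2. The change of PRPL5 minus that of PRPL17, -0.07, reversed to 0.0334 without low CO2 columns 9 and 10. Without normal CO2 columns 9 and 10 it reversed to 0.0182, and it was lowest at -0.19 without low CO2 columns 3 and 4. Its permutation p-values were 0.333 to 1.0 over its 14 alternatives. Most were exact, but with 20 separate columns the p-value came from 100000 resamples. With the replicate block it came from sign flips of the differences between equal numbers. The correlation of 0.61 between the members lost its call without the 2 farthest pairs (0.205, 8 pairs), without centring (0.512) and with group means removed (0.457). The median of the list, both members included, lay between -0.34 (normal CO2 columns 3 and 4 left out) and -0.02 (low CO2 columns 7 and 8 left out). AT3G13120 reversed to -0.013 with quantile normalization, -0.0415 with cyclic loess, to -0.0173 with low CO2 pair 7-8 left out, and to -0.0783 with low CO2 pair 9-10 or normal CO2 pair 5-6 left out. AT1G64510 reversed to 0.0945 without low CO2 columns 7 and 8. The count of 69 probes (12 higher, 57 lower) became 589 with 20 separate columns (296 higher, 293 lower), 186 with the random block (76 higher, 110 lower), 37 with zeros at the lowest positive value, 34 without a trend and, by construction, 20 at a threshold of 0.01. Leaving out 1 averaged pair gave 25 (low CO2 pair 3-4 or normal CO2 pair 5-6) to 123 (normal CO2 pair 1-2), with 36 for low CO2 pair 9-10, 37 for normal CO2 pair 3-4 and 26 for normal CO2 pairs 7-8 and 9-10. The cause of these moves was not tested. The correlations without centring and with group means removed were chosen after the data were seen. With 5 averaged pairs per group, the 95% interval was 0.97 wide on the log2 scale at the median over all probes.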
